A study of Mus musculus with 23 samples.

Results

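The transcription factors that drive Schwann cell (SC) myelination, and the corepressors that act with them, were followed through nerve injury and through adult loss of microRNA biogenesis in mouse sciatic nerve (SN). The 10 genes were listed by symbol: Egr2, Sox10, Pou3f1, Pou3f2, Nab1, Nab2, Zeb2, Nfatc4, Tead1 and Yy1. Gene identifiers in the count tables were mapped to GRCm38 symbols and the estimated counts of all transcripts of a gene were summed. All 10 were found in both experiments, among 43068 genes listed for the crush libraries and 22880 for the libraries of the inducible mutants, and all 10 passed the filter on low counts in every comparison.

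The study sequenced total RNA of whole SNs to compare the response to nerve injury with the response to loss of the microRNA pathway. In the crush experiment, SNs of wild-type young adult C57bl6 males were taken 3 days post crush (dpc) distal to the injury (n = 4), with uninjured contralateral nerves (n = 4) and uncrushed surgery controls (n = 3). In the second experiment, Dicer iKO nerves (P0-CreERT2 -/+ Dicer1 flox/flox) and Dgcr8 iKO nerves (P0-CreERT2 -/+ Dgcr8 flox/flox) were taken 3 months post tamoxifen (mpT), each with controls that lacked Cre but carried the same floxed alleles (P0-CreERT2 -/-), on the C57bl6 background and at the same time after tamoxifen (n = 3 for each of the 4 groups). By the study's methods, adult mice of both sexes received tamoxifen, controls included, and the analysis was restricted to mutants with visible nerve pathology. Dicer cuts precursor microRNAs into their mature form, and Dgcr8 is the RNA-binding partner of Drosha in the microprocessor, which acts before Dicer. The Cre recombinase was driven by a promoter active in myelinating SCs, so recombination was directed to these cells. Other cells of the nerve were meant to keep both genes, which these data do not check. The kit named in the labels is SMARTer for crush nerves and TruSeq for the mutants, while the methods name TruSeq throughout, and levels were therefore compared only within an experiment.

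In the peripheral nerve, Sox10 marks the SC lineage and is needed at every stage of it. Sox10 together with the POU factors Pou3f1 (Oct6, Scip) and Pou3f2 (Brn2) switches on Egr2 (Krox20), the factor that activates genes of myelin proteins and of lipid synthesis, and Pou3f1 is itself turned down again once myelin is made. Nab1 and Nab2 bind Egr proteins as coregulators. Zeb2 represses inhibitors of differentiation, Nfatc4 acts downstream of calcineurin, Tead1 is a DNA-binding partner of Yap1 and Wwtr1 (Taz), and Yy1 relays neuregulin signals to Egr2. Injury reverses much of this programme, and SCs then raise Jun and Sox2.

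By GRCm38 annotation, Egr2 (ENSMUSG00000037868) lies at chr10:67535475-67542188 on the plus strand, Sox10 (ENSMUSG00000033006) at chr15:79154908-79165240 on the minus strand and Pou3f1 (ENSMUSG00000090125) at chr4:124656807-124660655 on the plus strand. Nab1 (ENSMUSG00000002881) lies at chr1:52457294-52500679 and Nab2 (ENSMUSG00000025402) at chr10:127660918-127668568, both on the minus strand. Nab2 overlaps Stat6 and Nemp1 on the opposite strand, Pou3f1 overlaps the antisense gene Gm2164, and Zeb2 overlaps Zeb2os. Both kits mark strand, but the sources used here do not say whether the counting used it, so reads from these antisense partners may not be separated from the members.

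Promoter windows from RefSeq (GRCm38.p6, 250 bases before to 50 after a start site) were searched on both strands for the letters bound by the members' own families. The table held windows of 7 members, all but Sox10, Pou3f1 and Tead1. Matches to the EGR and POU letters, which lay in windows of Nab1 and Egr2, are shown in full, and other matches are given by their counts. The EGR letters GCGTGGGCG or GCGGGGGCG were in 3.47% of 32851 windows, and the window of Nab1 held 3 matches, the first 38, the second 109 and the third 141 bases upstream of the start site. These letters share bases with GC boxes, which were not searched. In the lines that follow, the strand of the gene is read and capitals mark the match, the third of which is on the other strand.
Nab1, chr1:52500468-52500496: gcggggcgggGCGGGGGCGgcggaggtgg
Nab1, chr1:52500539-52500567: actcggccgcGCGTGGGCGggagccggag
Nab1, chr1:52500571-52500599: gccccgcggcCGCCCACGCcgggatctgc

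The POU octamer ATGCAAAT was in 1.74% of windows and occurred once in 3 overlapping windows of Egr2, 127, 128 or 188 bases upstream of the start site, depending on the start site used. The windows of Nab2, Pou3f2 and Yy1 held no match to any of the letters searched, and that of Nfatc4 held 2 matches to the NFAT letters GGAAAA, which were in 23.4% of all windows. The other letters searched were ACAAAG or ACAATG for SOX, CAGGTG for ZEB, GGAATG for TEAD and AAGATGGC for YY1. The window of Nab1 also held 1 TEAD match, and another window of Egr2 held 1 TEAD and 1 NFAT match. Of the 4 windows of Zeb2, 1 held 1 SOX and 1 TEAD match, and 2 that overlap held 1 NFAT match each.
Egr2, chr10:67537732-67537759: ccaagcccgtATGCAAATtggccatgtg

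The 3′ UTRs of the members (the longest one annotated per gene in GENCODE M21) were searched for 7-letter matches to the seeds, bases 2 to 8, of microRNAs that the study names in SN, and matches are given for 7 of them: let-7f-5p, miR-10a-5p, miR-10b-5p, miR-22-3p, miR-27b-3p, miR-30a-5p and miR-181a-5p. Nab1 held 1 match to miR-22-3p, found in 17.9% of the 13143 expressed genes searched. Egr2 held 1 match to the seed that miR-10a-5p and miR-10b-5p share, found in 15.6% of genes. The sequences of these microRNAs are shown with seeds in capitals, because Nab1 and Egr2 were the members called lower in a mutant. Nab1 was called in both mutants and Egr2 in Dgcr8 iKO only. The study describes microRNAs as mainly silencing their targets, and a link between these sites and the falls was not tested.
miR-22-3p: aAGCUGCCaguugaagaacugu
miR-10a-5p: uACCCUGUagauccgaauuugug
miR-10b-5p: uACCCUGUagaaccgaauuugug

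The matched sites, in capitals, are read along the mRNA.
Nab1, miR-22-3p site: ggctatatttatGGCAGCTgcttaagatgt
Egr2, miR-10a-5p and miR-10b-5p site: tgggcagtgttaACAGGGTctgcatgtgta

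The site of Egr2 starts at base 867 of a UTR of 1203 bases, and that of Nab1 starts at base 674 of a UTR of 1927 bases. Sox10 and Zeb2 each held 1 miR-181a-5p match, and Tead1 held 1 match to the miR-10 seed in a UTR of 8150 bases. Yy1 held 1 match each to let-7f-5p and miR-27b-3p, and Pou3f2 held 3 to miR-181a-5p and 1 to miR-27b-3p. None of the 7 had a match in the UTRs of Pou3f1, Nab2 or Nfatc4. The median UTR searched was 1411 bases.

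Total counts per library were 6617600 to 12805921 in the crush experiment and 5594838 to 10143207 in the mutants, and 3 counts of the total correspond to 0.234 to 0.536 CPM (counts scaled to the library size, normalized by TMM within an experiment). This floor covers counting error only. As a check of the tissue, all 9 SC markers were detected in uncrushed and contralateral nerves, where they summed to 31347 to 42909 CPM, and in crushed nerves to 2308 to 3188 CPM. Macrophage markers summed to 93.1 to 172 CPM in uncrushed and contralateral nerves and 679 to 1621 CPM in crushed nerves, and to 289 to 1027 CPM in control and 2653 to 7133 CPM in iKO nerves. In these bulk samples, fewer cells of a type and less RNA per cell cannot be told apart. Dicer1 was at 81.9 ± 0.415 CPM in Dicer iKO and 88.7 ± 1.66 CPM in controls (log2 fold change -0.11, adjusted p = 0.357), and Dgcr8 at 45.1 ± 7.84 and 38.5 ± 3.20 CPM (0.22, adjusted p = 0.233; SD, n = 3). These totals are over whole genes and all cells of the nerve, so they do not check the deletions.

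Levels of different factors were compared per transcript length, as TPM. In the 7 uncrushed and contralateral nerves, the order of mean TPM was Zeb2 (27.5), Sox10 (11.7), Nab1 (7.06), Tead1 (5.34), Egr2 (4.87), Nab2 (2.74), Yy1 (1.81), Pou3f1 (0.441), Pou3f2 (0.236) and Nfatc4 (0.0643). Each gene lay above the next in all 7 nerves except Tead1, which lay above Egr2 in 4 of 7. In crushed nerves, Egr2 (1.18 TPM) was in eighth place, below Pou3f1 (1.99 TPM) in 4 of 4 nerves, while Zeb2 (46.3 TPM) and Sox10 (7.29 TPM) kept the first places. Pou3f1 and Nab2 could not be ordered there, with Nab2 above in 2 of 4 nerves. In the 6 iKO controls the order was Zeb2 (299 TPM), Sox10 (183), Egr2 (147), Nab1 (125), Tead1 (65.8), Nab2 (35.0), Yy1 (34.2), Pou3f1 (8.15), Pou3f2 (6.13) and Nfatc4 (4.75). Neighbours in this order were not all separated, since Nab2 lay above Yy1 in 2 of 6 nerves, Pou3f2 above Nfatc4 in 4, and Egr2 above Nab1, Nab1 above Tead1 and Pou3f1 above Pou3f2 in 5. In the 6 iKO nerves Egr2 (85.5 TPM) came after Zeb2 and Sox10, above Tead1 (76.3) in 4 of 6, and Pou3f1 (19.7) lay above Pou3f2 (7.60) in 6 of 6. The absolute TPM differed between the experiments, whose tables list different numbers of transcripts, and were not compared. Within the crush experiment, mean Zeb2 was 20.2 TPM in uncrushed and 33.0 TPM in contralateral nerves, at 834 and 904 CPM. TPM was therefore used to order the factors and not to compare groups.

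After crush, Egr2 fell most of the 10 factors and Pou3f1 rose most, so that the factor of mature myelin and the factor of the promyelinating SC moved apart. Sox10, Nab1 and Nab2 fell less, and Zeb2 rose. The comparisons with uncrushed and with contralateral nerves share the crushed libraries and are given side by side. Against uncrushed nerves, 4 members fell (Egr2, Sox10, Nab1, Nab2) and 3 rose (Pou3f1, Zeb2, Yy1), where 33.4% of 17433 genes tested were called lower and 33.8% higher at an adjusted p of at most 0.05. Against contralateral nerves, 6 fell (Egr2, Sox10, Nab1, Nab2, Pou3f2 and Tead1) and 2 rose (Pou3f1, Zeb2), where 32.9% of 16667 genes were called lower and 33.5% higher. With most of the transcriptome called in both comparisons, a share of 7 or 8 of 10 members is near the share of all genes, 67.2% and 66.4%. The median log2 fold change of the members was -0.10 and -0.49, beside -0.03 and -0.06 over all genes tested.

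**Figure D1:**
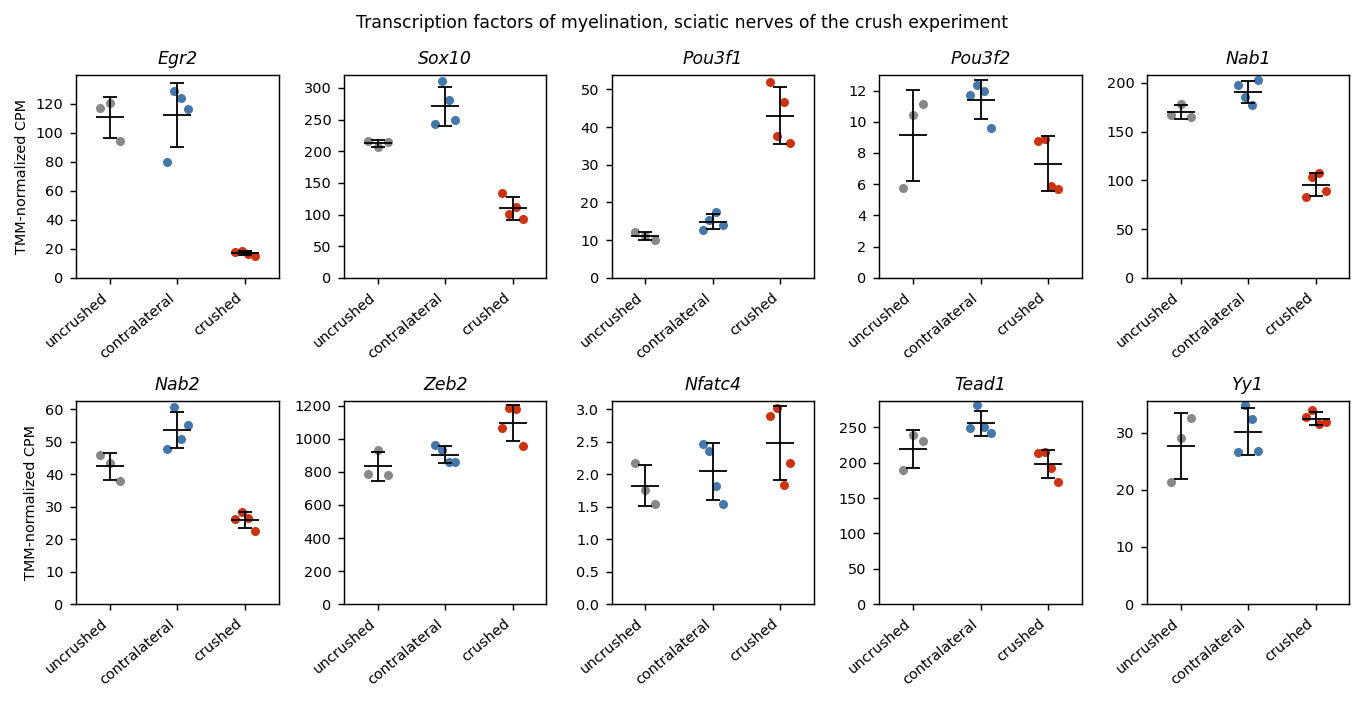
Each panel plots 1 gene in the crush experiment, with TMM-normalized CPM on the vertical axis from 0 and the uncrushed (n = 3), contralateral (n = 4) and crushed (n = 4) nerves on the horizontal axis; points are libraries, and black bars are the mean ± SD. The 4 crushed nerves lie between 15.2 and 18.5 CPM for Egr2, below every control, and between 35.8 and 51.8 CPM for Pou3f1, above every control.

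Egr2 was at 117, 121 and 94.2 CPM in the uncrushed nerves and at 79.9, 128, 124 and 116 CPM in the contralateral nerves. In the crushed nerves it was at 18.1, 18.5, 16.6 and 15.2 CPM. The crushed nerves were all far below the lowest control, and they varied little among themselves. The log2 fold change was -2.59 ± 0.12 (SE, adjusted p = 2.84e-09) against uncrushed and -2.69 ± 0.14 (adjusted p = 5.05e-10) against contralateral nerves, which left 0.166 and 0.155 of the control level. Egr2 was the single member that fell by at least 2-fold against uncrushed nerves, where 21.1% of all genes did so. Against contralateral nerves Egr2, Sox10 and Nab2 did so, beside 13.6% of all genes.

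Pou3f1, which is transient in development, moved the other way. It was at 12.3, 11.1 and 9.95 CPM in uncrushed nerves, at 12.6, 15.4, 17.4 and 14.1 CPM in contralateral nerves, and at 51.8, 37.7, 46.5 and 35.8 CPM in crushed nerves. All crushed nerves were above all controls. Its level was 4.11-fold that of uncrushed nerves (log2 fold change 2.04 ± 0.16, adjusted p = 2.70e-07) and 2.92-fold that of contralateral nerves (1.55 ± 0.13, adjusted p = 1.09e-07). It was the single member that rose by at least 2-fold in either comparison, where 15.3% and 14.6% of all genes did so. Its relative Pou3f2 did not follow it. Pou3f2 was at 5.78 to 11.2 CPM in uncrushed, 9.58 to 12.4 CPM in contralateral and 5.67 to 8.90 CPM in crushed nerves, and fell against contralateral (log2 fold change -0.62 ± 0.16, adjusted p = 0.00354) but passed no test against uncrushed nerves (-0.17 ± 0.24, adjusted p = 0.542).

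Sox10 was at 216, 207 and 214 CPM in uncrushed nerves and at 243, 310.2, 281 and 249 CPM in contralateral nerves. After crush it was at 134, 101, 112 and 92.6 CPM, below every control. The fall was smaller than that of Egr2, with a log2 fold change of -0.84 ± 0.12 (adjusted p = 6.78e-05) against uncrushed and -1.29 ± 0.12 (adjusted p = 2.79e-07) against contralateral nerves. Egr2 was also lower relative to Sox10 within each library. There were 0.158 ± 0.0208 Egr2 counts per Sox10 count in crushed nerves (SD, n = 4), 0.521 ± 0.0742 in uncrushed (n = 3) and 0.412 ± 0.0597 in contralateral nerves (n = 4), and the crushed range overlapped neither control range.

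Both Egr coregulators fell after crush. Nab1 was at 165 to 178 CPM in uncrushed, 177 to 203 CPM in contralateral and 82.5 to 108 CPM in crushed nerves. Nab2 was at 37.9 to 46.0, 47.9 to 60.7 and 22.4 to 28.4 CPM in the same groups. For both genes every crushed nerve was below every control. Against uncrushed nerves, the log2 fold change was -0.73 ± 0.10 for Nab1 (adjusted p = 5.65e-05) and -0.61 ± 0.11 for Nab2 (adjusted p = 0.000314). Against contralateral nerves it was -0.98 ± 0.08 (adjusted p = 1.26e-07) and -1.04 ± 0.10 (adjusted p = 3.05e-07). The number of Nab1 counts per Nab2 count overlapped between the groups, at 4.02 ± 0.362 in uncrushed, 3.58 ± 0.445 in contralateral and 3.70 ± 0.417 in crushed nerves.

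Zeb2, the most abundant of the 10, was at 781 to 933 CPM in uncrushed, 861 to 963 CPM in contralateral and 956 to 1189 CPM in crushed nerves. It rose by a log2 fold change of 0.50 ± 0.12 against uncrushed (adjusted p = 0.00274) and 0.29 ± 0.09 against contralateral nerves (adjusted p = 0.00872). The ranges of crushed and contralateral nerves overlapped, and without crushed replicate 2 or 3 that call was lost (0.23, adjusted p = 0.0556 and 0.0637). Zeb2 is also expressed by macrophages. All 10 macrophage markers rose in both comparisons, with a median log2 fold change of 3.09 and 3.11, and their part in the rise of Zeb2 was not tested.

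Tead1 was at 189 to 238 CPM in uncrushed, 241 to 282 CPM in contralateral and 173 to 215 CPM in crushed nerves. It fell against contralateral nerves (log2 fold change -0.35 ± 0.09, adjusted p = 0.00286), a call that was lost without the filter on low counts (-0.19, adjusted p = 0.185). Against uncrushed nerves its log2 fold change was -0.04 ± 0.11 (adjusted p = 0.787). Yy1 was at 21.4 to 32.6, 26.6 to 34.9 and 31.4 to 33.9 CPM in the 3 groups, and its ranges overlapped. It was called higher against uncrushed nerves (log2 fold change 0.35 ± 0.12, adjusted p = 0.0233), and the call was lost without crushed replicate 2 (0.33, adjusted p = 0.0579), crushed replicate 4 (0.33, adjusted p = 0.0545) or uncrushed replicate 1 (0.24, adjusted p = 0.0577). Against contralateral nerves Yy1 had a log2 fold change of 0.12 ± 0.10 (adjusted p = 0.331), which passed only without contralateral replicate 2 (0.22, adjusted p = 0.0461).

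Nfatc4 was the least abundant, with 9 to 37 counts per library in the crush experiment, and was at 1.54 to 2.17, 1.54 to 2.46 and 1.84 to 3.02 CPM. Its log2 fold change was 0.52 ± 0.28 (adjusted p = 0.123) and 0.29 ± 0.25 (adjusted p = 0.312), so it passed neither test. Counted by ranges, the crushed nerves lay outside the uncrushed range for 2 members above and 4 below (29.7% and 35.9% of all genes) and outside the contralateral range for 1 above and 6 below (30.3% and 29.2%).

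Contralateral nerves were compared with uncrushed nerves as the uninjured side against surgery controls. No gene of 17722 was called in edgeR, so 0% of genes and 0 members, although 3165 genes (17.9%) had an unadjusted p under 0.05, and DESeq2 called 18 genes higher and 232 lower. The members with the smallest adjusted p in edgeR were Sox10 (log2 fold change 0.35 ± 0.10, adjusted p = 0.142), Nab2 (0.33 ± 0.11, adjusted p = 0.172) and Pou3f1 (0.40 ± 0.14, adjusted p = 0.194). In DESeq2 Sox10 passed (0.36, adjusted p = 0.0479). For Sox10, Nab2, Pou3f1 and Tead1, every contralateral nerve was above every uncrushed nerve, as for 6.75% of all genes, and no member was below, as were 8.84% of all genes. Egr2 differed by a log2 fold change of 0.01 ± 0.15 (adjusted p = 0.977).

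The genes around these factors were described by lists. Of 16 targets of Egr2 and Sox10, which encode myelin proteins and enzymes of cholesterol synthesis, 14 fell and 1 rose against uncrushed nerves and 15 fell and 1 rose against contralateral nerves, with medians of -3.60 and -3.76 beside -0.03 and -0.06 over all genes. Ncmap, a protein of noncompact myelin, fell (-6.06 and -6.18). Gjb1, the gap junction protein connexin 32 of noncompact myelin, was the exception and rose (1.77 and 1.61), from 39.4 to 54.0 CPM in the controls to 112 to 190 CPM in crushed nerves. Of 9 opponents of myelination, 8 were tested, and 7 rose and 1 fell in both comparisons (medians 1.95 and 1.83). Jun rose by 2.95 and 2.68 and the endothelin receptor Ednrb by 2.75 and 2.87, while Hey2, a Notch effector, fell by 1.74 and 2.18.

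Relatives of the members in their own families did not all move with them. Of 16 relatives, 8 rose and 5 fell of 15 tested against uncrushed nerves (median 0.47), and 6 rose and 4 fell of 13 tested against contralateral nerves (median 0.33). Of all genes tested, 67.2% and 66.4% were called in either direction in these comparisons. Zeb1, the paralogue of Zeb2, rose by 2.14 and 2.01, from 135 to 145 CPM in controls to 512 to 584 CPM. Egr3, an early response gene related to Egr2, rose by 1.78 and 1.93, to 3.69 to 4.67 CPM. Tead3 fell by 2.25 and 2.35. Yy2 and Pou3f4 passed the test against uncrushed nerves (2.65 and -2.28), at levels of at most 2.37 CPM in every crush library. Of 17 cofactors, 10 rose and 3 fell against uncrushed and 8 rose and 5 fell against contralateral nerves (medians 0.41 and 0.20). The shares of all genes beside these counts were again 67.2% and 66.4%. Without crushed replicate 2 or 3, 5 cofactors rose against contralateral nerves, and without the filter on low counts none fell against uncrushed nerves. The inhibitory SMAD gene Smad7 (1.40 and 1.196) and the chromatin remodeller Smarca4 (1.27 and 0.92) rose most, and the neuregulin receptor gene Erbb3 fell most (-0.47 and -0.85), followed by Yap1 against uncrushed (-0.40) and Adgrg6 against contralateral nerves (-0.72).

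**Figure D2:**
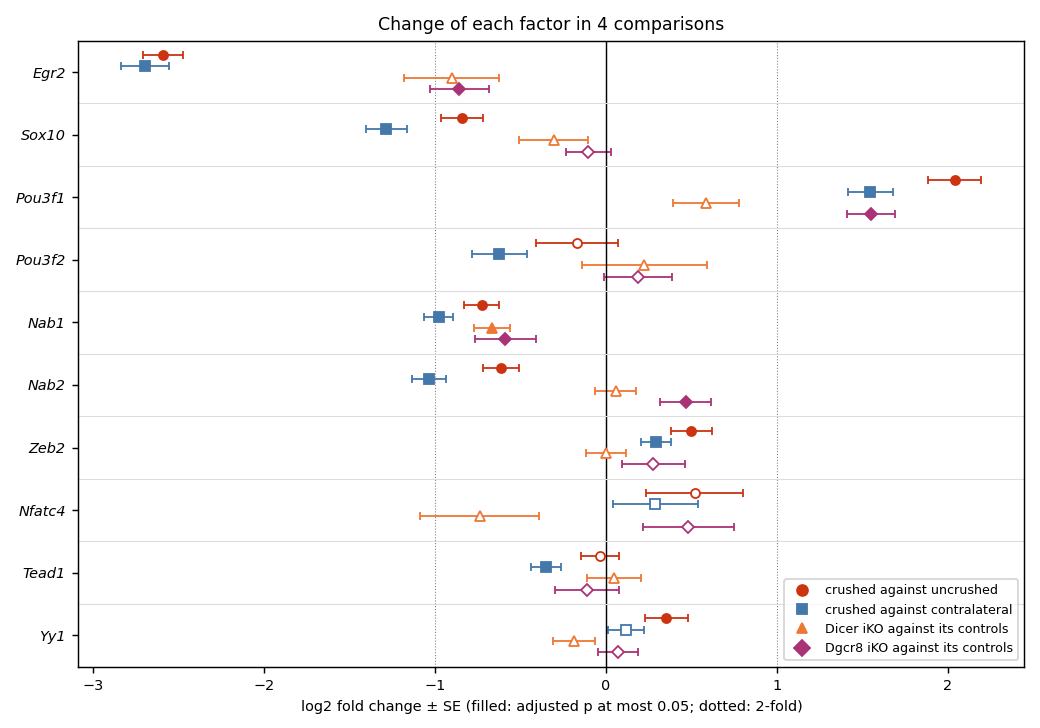
The horizontal axis is the log2 fold change with its SE as bars, for the 10 genes (rows) in 4 comparisons (symbols); filled symbols have an adjusted p of at most 0.05 in edgeR's quasi-likelihood test, and dotted lines mark 2-fold. Egr2 and Nab1 lie to the left and Pou3f1 to the right in all 4 comparisons, although Egr2 and Pou3f1 are not filled in Dicer iKO, and Nab2 lies to the left after crush (-0.61 and -1.04) and to the right in Dgcr8 iKO (0.47).

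In uninjured adult nerves that lost Dgcr8 in SCs, Egr2 fell and Pou3f1 rose, while Sox10 passed no test. Nab1 and Nab2, which fell together after crush, went in opposite directions. Of the 10 members, 2 rose (Pou3f1, Nab2) and 2 fell (Egr2, Nab1), where 44.5% of 13252 genes were called, 23.9% higher and 20.6% lower. Only Pou3f1 passed 2-fold, as did 13.4% of all genes in the upward direction and 6.99% downward. The median of the members was 0.13, beside -0.01 over all genes.

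Pou3f1 was at 18.7, 17.7 and 15.4 CPM in the Dgcr8 controls and at 53.5, 44.8 and 53.4 CPM in Dgcr8 iKO. All mutants were above all controls, and the level was 2.93-fold that of controls (log2 fold change 1.55 ± 0.14, adjusted p = 1.21e-05). Egr2 was at 192, 203 and 253 CPM in controls and at 117, 145 and 95.5 CPM in Dgcr8 iKO. Again the groups did not overlap, and the log2 fold change was -0.86 ± 0.17 (adjusted p = 0.00202), which left 0.552 of the control level. Sox10 was at 265, 263 and 269 CPM in controls and 255, 264 and 223 CPM in Dgcr8 iKO, with overlapping ranges (-0.10 ± 0.13, adjusted p = 0.544). Egr2 counts per Sox10 count were 0.813 ± 0.114 in controls and 0.479 ± 0.0629 in Dgcr8 iKO (SD, n = 3), without overlap.

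Nab1 was at 161, 118 and 195 CPM in Dgcr8 controls and 107, 116 and 93.4 CPM in Dgcr8 iKO. The lowest control was barely above the highest mutant, and the log2 fold change was -0.59 ± 0.18 (adjusted p = 0.0193). Nab2 was at 36.3, 44.4 and 38.5 CPM in controls and 62.9, 57.3 and 44.4 CPM in Dgcr8 iKO. The highest control and the lowest mutant both rounded to 44.4 CPM, and the log2 fold change was 0.47 ± 0.15 (adjusted p = 0.0257). Both calls were sensitive to leaving out a library, although both changes kept their direction under every alternative run. The Nab1 call was lost without iKO replicate 1 (adjusted p = 0.0550), iKO replicate 3 (0.0541), control replicate 1 (0.0572) or control replicate 3 (0.0778). The Nab2 call was lost without iKO replicate 1 (adjusted p = 0.119), iKO replicate 2 (0.0574), control replicate 1 (0.106) or control replicate 3 (0.0784). By ranges, 1 member lay above and 2 below the controls (28.9% and 27.0% of all genes).

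The other 5 members passed no test in Dgcr8 iKO. Zeb2 was at 581 to 727 CPM in controls and 623 to 893 CPM in mutants (log2 fold change 0.28 ± 0.18, adjusted p = 0.243). Nfatc4 was at 4.14 to 6.26 and 5.35 to 8.74 CPM (0.48 ± 0.26, adjusted p = 0.161). Pou3f2 was at 19.7 to 23.2 and 17.2 to 30.9 CPM (0.19 ± 0.20, adjusted p = 0.471), Tead1 at 148 to 245 and 149 to 203 CPM (-0.11 ± 0.19, adjusted p = 0.663), and Yy1 at 35.8 to 40.1 and 39.0 to 42.9 CPM (0.07 ± 0.12, adjusted p = 0.643). For all 5 genes the ranges of the groups overlapped.

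**Figure D3:**
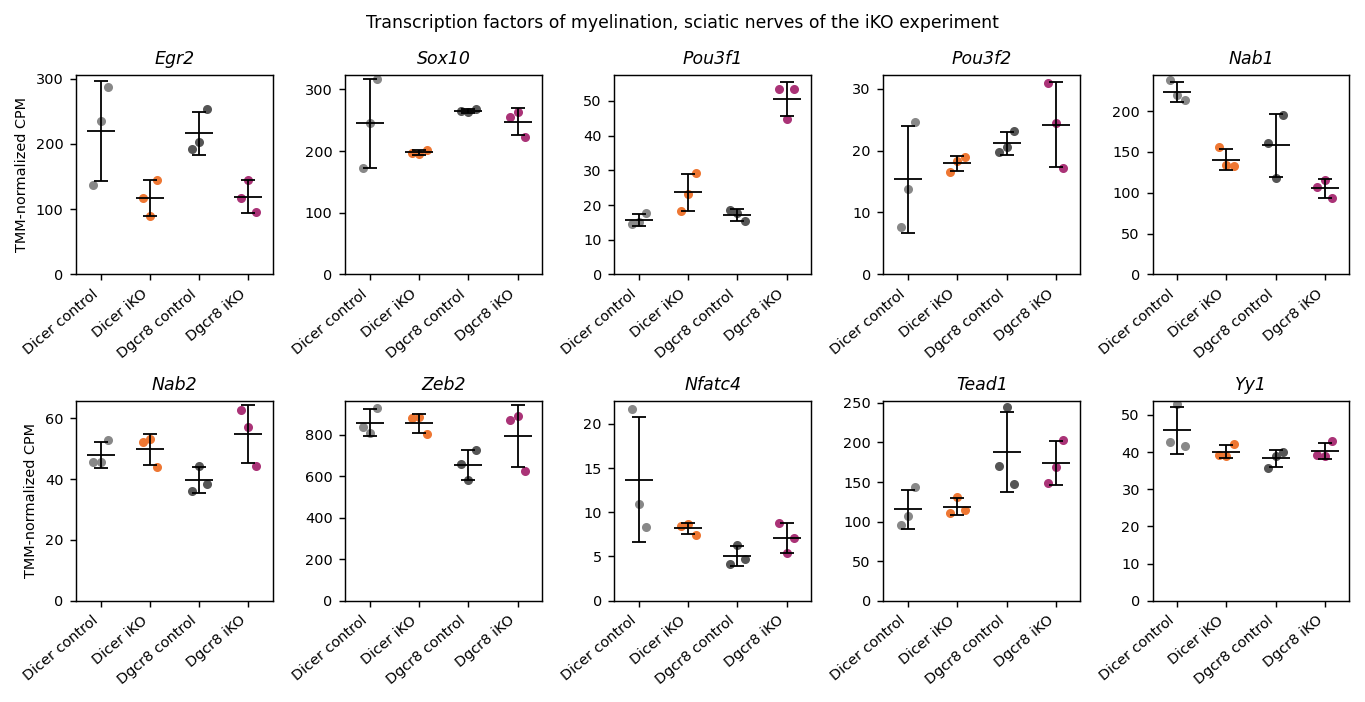
Each panel plots 1 gene in the iKO experiment, with TMM-normalized CPM on the vertical axis from 0 and the Dicer control, Dicer iKO, Dgcr8 control and Dgcr8 iKO nerves (n = 3 each) on the horizontal axis; points are libraries, and black bars are the mean ± SD. Pou3f1 is at 44.8 to 53.5 CPM in Dgcr8 iKO, above the 18.4 to 29.2 CPM of Dicer iKO and the 14.5 to 18.7 CPM of all 6 controls.

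In Dicer iKO, Nab1 was the single member that passed the test. Of all 13045 genes, 21.2% were called, 8.88% lower and 12.3% higher. No member passed 2-fold, as did 7.37% of genes upward and 1.64% downward. The median of the members was -0.09 beside -0.01 over all genes. With all libraries 1605 genes were higher and 1159 lower, and fewer passed without iKO replicate 2 (702 and 177), iKO replicate 3 (668 and 173) or control replicate 2 (718 and 259). Nab1 was at 238, 219 and 214 CPM in Dicer controls and at 156, 133 and 133 CPM in Dicer iKO. The mutants were all below the controls, with a log2 fold change of -0.67 ± 0.11 (adjusted p = 0.00656), which left 0.630 of the control level. Nab2 had overlapping ranges of 45.6 to 52.9 CPM in controls and 44.1 to 53.4 CPM in mutants (0.06 ± 0.12, adjusted p = 0.764). Nab1 counts per Nab2 count were 4.69 ± 0.592 in Dicer controls and 2.83 ± 0.287 in Dicer iKO, and 4.05 ± 1.25 in Dgcr8 controls and 1.94 ± 0.217 in Dgcr8 iKO (SD, n = 3). In both mutants every value was below every value of the matching controls. Nab1 CPM alone already lay below all controls in both, as for 20.0% of all genes in Dicer iKO and 27.0% in Dgcr8 iKO.

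Egr2 and Pou3f1 did not pass in Dicer iKO. Egr2 was at 137, 234 and 288 CPM in Dicer controls and 118, 89.6 and 145 CPM in Dicer iKO. Control replicate 1 lay within the range of the mutants and the other two controls lay above it, and the log2 fold change was -0.90 ± 0.28 (adjusted p = 0.0555). Without control replicate 1 it was -1.15 (adjusted p = 0.00796), and with DESeq2, which kept all libraries, it was -0.91 (adjusted p = 0.00834). Egr2 counts per Sox10 count were 0.886 ± 0.0840 in Dicer controls and 0.591 ± 0.129 in Dicer iKO (SD, n = 3), without overlap. Pou3f1 was at 14.5, 15.1 and 17.7 CPM in controls and 18.4, 23.3 and 29.2 CPM in Dicer iKO. Every mutant was above every control, yet the log2 fold change of 0.58 ± 0.19 did not pass (adjusted p = 0.0670), and it did so without iKO replicate 1 (0.75, adjusted p = 0.0267). By ranges, 1 member lay above and 1 below the controls (21.9% and 20.0% of all genes).

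Sox10 was at 173, 245 and 317 CPM in Dicer controls and 197, 195 and 202 CPM in Dicer iKO (log2 fold change -0.31 ± 0.20, adjusted p = 0.308). Control replicate 1 was again the lowest, and without it the difference passed (-0.51, adjusted p = 0.0312). Nfatc4 was at 21.7, 10.98 and 8.39 CPM in controls and 8.39, 8.63 and 7.48 CPM in mutants, with control replicate 1 now the highest (-0.74 ± 0.35, adjusted p = 0.167). Without control replicate 3 Nfatc4 passed (-0.996, adjusted p = 0.0448). In the same 3 controls, fibroblast markers summed to 14827, 11007 and 4572 CPM, macrophage markers to 1027, 595 and 311 CPM, and SC markers to 23701, 29616 and 38078 CPM. Replicate 1 had the highest fibroblast and macrophage sums and the lowest SC sum, and their part in these values was not tested.

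Pou3f2 was at 7.62 to 24.6 CPM in Dicer controls and 16.5 to 19.0 CPM in Dicer iKO (log2 fold change 0.22 ± 0.36, adjusted p = 0.691). Zeb2 was at 807 to 930.3 and 804 to 885 CPM (0.00 ± 0.12, adjusted p = 0.998). Tead1 was at 96.2 to 143 and 111 to 131 CPM (0.05 ± 0.16, adjusted p = 0.853), and Yy1 at 41.7 to 52.9 and 38.8 to 42.3 CPM (-0.19 ± 0.12, adjusted p = 0.306). The ranges of these 4 genes overlapped.

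Whether the mutants differed from each other was tested as an interaction over all 12 libraries. No member was called, and 2 of 13552 genes were (0.0148%), 1 in each direction and both past 2-fold (0.00738% each), while 1861 genes (13.7%) had an unadjusted p under 0.05 and DESeq2 called 170 genes higher and 65 lower. Pou3f1 came closest in edgeR, with a change in Dgcr8 iKO that exceeded that in Dicer iKO by 0.97 ± 0.23 on the log2 scale (adjusted p = 0.148). In DESeq2 this difference passed (0.98, adjusted p = 0.0276). Nfatc4 had a difference of 1.22 ± 0.46 (adjusted p = 0.282) and Nab2 of 0.41 ± 0.20 (adjusted p = 0.385). For Egr2 (0.05 ± 0.35, adjusted p = 0.964) and Nab1 (0.08 ± 0.22, adjusted p = 0.898) the estimates were near 0.

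**Figure D4:**
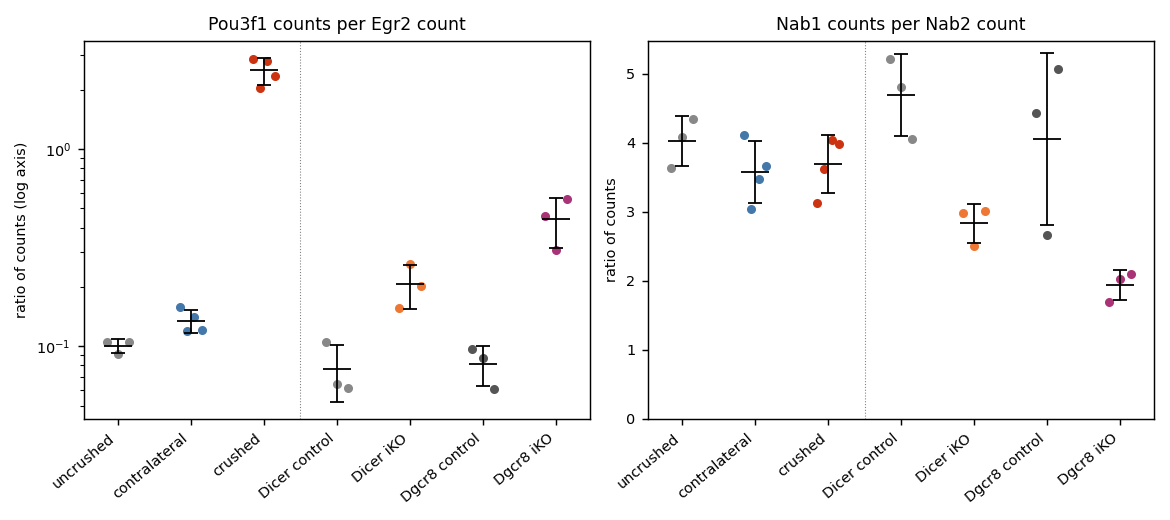
The left panel plots Pou3f1 counts per Egr2 count (log axis) and the right panel Nab1 counts per Nab2 count (axis from 0) in the libraries of the 7 groups; points are libraries, black bars are the mean ± SD, and the dotted line separates the experiments. Pou3f1 per Egr2 lies between 2.04 and 2.86 in crushed nerves and at 0.309 to 0.559 in Dgcr8 iKO, each above its controls, and Nab1 per Nab2 is below its controls in both mutants but not after crush.

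Pou3f1 and Egr2 were the members that rose and fell most after crush, so a separation of their ratio there follows from the choice. This ratio, like Egr2 per Sox10 and Nab1 per Nab2, is a description, and how many other gene pairs would separate was not counted. Within a library, where library size cancels, Pou3f1 per Egr2 separated every treated group from its controls, although neither gene passed in Dicer iKO. There were 2.51 ± 0.387 Pou3f1 counts per Egr2 count in crushed nerves (SD, n = 4), 0.101 ± 0.00791 in uncrushed nerves (n = 3) and 0.135 ± 0.0179 in contralateral nerves (n = 4). The mean was 0.441 ± 0.126 in Dgcr8 iKO and 0.0817 ± 0.0189 in its controls, and 0.206 ± 0.0520 in Dicer iKO and 0.0772 ± 0.0247 in its controls (n = 3 each). Pou3f1 counts outnumbered Egr2 counts in crushed nerves, but in neither mutant.

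In Dgcr8 iKO, 13 of 16 targets fell and 1 rose (median -1.05 beside -0.01 over all genes). Drp2, a protein of the dystroglycan complex of myelinating SCs, fell by 2.01 on the log2 scale, and Sqle, an enzyme of cholesterol synthesis, by 1.77. Pmp2, a fatty acid binding protein of myelin, was the target that rose (0.97). In Dicer iKO, 3 targets fell (Sqle, -1.11; Drp2, -0.99; Prx, which encodes periaxin, -0.89; the last chosen after its value was seen) and none rose (median -0.52). The number that fell was 0 without iKO replicate 2, iKO replicate 3 or control replicate 2, 6 without iKO replicate 1, 10 without control replicate 1 and 7 in DESeq2. Of 8 opponents tested, 6 rose in Dgcr8 iKO and 5 in Dicer iKO, and none fell (medians 1.45 and 0.84). Ednrb (3.67 and 2.84) and Id2 (3.21 and 2.65), an inhibitor of differentiation, rose most in both mutants. Control levels of Ednrb were 8.99 to 16.5 CPM, and iKO levels 54.4 to 185 CPM.

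Of 13 relatives tested, 3 rose and 3 fell in Dgcr8 iKO and none passed in Dicer iKO (medians -0.01 and -0.14), beside 44.5% and 21.2% of all genes called in either direction. In Dgcr8 iKO, Egr3 (1.45) and Tead2 (0.84) rose, and Tead4 (-1.25) and Tead3 (-1.03) fell, while Tead1 passed no test. Without control replicate 1, 1 relative rose. Of 17 cofactors, 6 rose and 2 fell in Dgcr8 iKO and 1 fell in Dicer iKO (medians 0.21 and 0.05), beside the same shares of all genes. Without Dgcr8 iKO replicate 1, 3 rose and 0 fell, and the number that fell was 0 or 1 without each of the other libraries except iKO replicate 2. Smad7 (0.99) and the histone deacetylase gene Hdac2 (0.55) rose most in Dgcr8 iKO. Yap1, the coactivator of the Tead factors, fell in both mutants, by 0.52 in Dgcr8 iKO and by 0.66 in Dicer iKO, and was the single cofactor that passed in Dicer iKO. Adgrg6, an adhesion receptor needed to start myelination, fell by 0.37 in Dgcr8 iKO.

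Markers of cell types were counted in the same nerves. Beside the counts that follow, 44.5% of all genes were called in Dgcr8 iKO (23.9% higher) and 21.2% in Dicer iKO (12.3% higher). After crush, 67.2% of all genes were called against uncrushed and 66.4% against contralateral nerves. Of 10 macrophage markers, 9 rose in Dgcr8 iKO and 8 in Dicer iKO, and of 8 fibroblast markers 6 and 4 rose. Fibroblast markers summed to 14583 to 17510 CPM in Dgcr8 iKO and 6086 to 8038 CPM in its controls. SC markers summed to 11931 to 22074 CPM in Dgcr8 iKO and 33018 to 35776 CPM in its controls, and of the 9, 4 fell and 3 rose. Of 7 endothelial markers, 3 fell in Dgcr8 iKO and 1 in Dicer iKO, and after crush 4 rose against either control, while 1 fell against uncrushed and 2 against contralateral nerves. After crush 2 fibroblast markers rose and 4 fell in either comparison, and of the SC markers 2 rose (Cdh19 and Foxd3, markers of immature SCs) and 5 fell of 8 tested against uncrushed nerves. Lymphocyte markers stayed at or below 30.9 CPM in sum in every library, with 3 of 4 tested higher in Dgcr8 iKO, 1 of 1 higher in Dicer iKO and 2 of 3 lower against uncrushed nerves. Adipocyte markers reached 99.8 CPM and muscle markers 19.1 CPM, each in 1 Dicer control, and at most 3 genes of either list were tested in a comparison. The part of these shifts in the changes of the members was not tested.

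Transcript usage was described for each member. Sox10, Pou3f1 and Pou3f2 had 1 listed transcript each. The transcript ENSMUST00000048289 held 88.6% of Egr2 counts on average in the crush experiment and 89.0% in the iKO experiment, of 7 transcripts listed. Nab1 and Tead1 had different leading transcripts in the experiments, which differ in kit by the labels. For Nab1, ENSMUST00000186764 led in the crush libraries (51.0%) and ENSMUST00000069792 in the libraries of mutants and their controls (72.4%). For Tead1 these were ENSMUST00000059768 (79.2%) and ENSMUST00000069256 (71.4%). For Nab2, ENSMUST00000026469 led in uncrushed (52.0%) and contralateral nerves (52.3%) and in the mutants and their controls (86.4%), and ENSMUST00000099157 led in crushed nerves (61.1 ± 12.6%, SD, n = 4), where its share was 43.2 to 72.1%. For Zeb2, ENSMUST00000177302 led by mean share in the crush experiment (48.4%) and in the Dgcr8 and Dicer controls (26.0% and 25.6%). ENSMUST00000068415 led by mean share in Dgcr8 iKO and Dicer iKO (29.9% and 28.7%). Its share was 17.6 to 36.7% and 24.9 to 35.2% in these mutants, and that of ENSMUST00000177302 was 20.5 to 26.4% and 20.5 to 32.1%. The ranges of the 2 transcripts also overlapped in both control groups, so their order was not settled in the iKO experiment. Yy1 and Nfatc4 kept their leading transcripts by mean share, ENSMUST00000021692 (90.8% and 97.0%) and ENSMUST00000172271 (78.2% and 77.8%). For Nfatc4, which had few counts, the share ranged from 17.1 to 100% in crush and 44.5 to 100% in iKO libraries. It did not lead in each library. How RSEM divides reads among overlapping transcripts sets these shares.

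The genes whose levels over the 7 groups were most like those of Egr2 were Phgdh, Ston1, Sntb1, Tmem56 and Cers4, with a root mean square difference of 0.0866 to 0.113 in mean log2(CPM + 1), centred within each experiment, among 8042 genes of at least 10 CPM. Phgdh encodes the first enzyme of serine synthesis and Cers4 a ceramide synthase. For Sox10 they were Piezo2, Snx7, Slc39a13, Lrp11 and Tgfbr3, with a difference of 0.0694 to 0.0836. Piezo2 encodes a mechanosensitive ion channel and Slc39a13 a zinc transporter. The 5 genes nearest to Egr2 and the 5 nearest to Sox10 were not shared.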

How the data were processed

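Long RNA libraries of 11 SNs (crush experiment) and 12 SNs (iKO experiment) were used. The authors trimmed the reads (Trimmomatic), aligned them to GRCm38 (STAR) and quantified transcripts (RSEM). The deposited expected counts (estimated counts, not normalized) were summed per gene and rounded for all tests. The deposited TPM values, scaled by the authors for transcript length and library size, were summed per gene to order the factors. The deposited FPKM values were not used. RSEM shares multi-mapped reads between transcripts, so transcript shares are estimates.

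Each comparison was fitted on its own groups in R 4.3.3 with edgeR 4.0.16: filterByExpr (minimum count 10), TMM, quasi-likelihood test and Benjamini-Hochberg adjustment over all genes tested, with a call at an adjusted p of at most 0.05 and, counted beside it, a change of at least 2-fold. An SE was obtained from each log2 fold change and its F statistic. The script was tested on simulated data. CPM used TMM factors over all libraries of an experiment, and profiles used log2(CPM + 1). Groups and replicate numbers came from the labels. The methods count mice per group, and contralateral nerves came from operated mice, but the sources used here do not say which crushed nerve shares a mouse with which contralateral nerve. P-values measure the spread between these samples, and floors cover counting error only.

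The members and the gene lists were chosen with earlier results of these data known. The lists were targets (16), opponents (9), relatives (16), cofactors (17) and markers of SCs, macrophages, fibroblasts, endothelial cells, lymphocytes, adipocytes and muscle. All members were named in each comparison, and of the other lists up to 2 called genes per direction with the largest change. Some items are not reported here. Alternatives were RLE normalization, no filter, at least 10 counts in every sample, DESeq2 1.42.0, all groups in one fit, the replicate number as a block and each library left out.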

Additional observations from a re-analysis of the deposited data

How the results depend on the processing

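These calls of members kept their direction and an adjusted p of at most 0.05 under every alternative run: Egr2, Nab1, Nab2, Pou3f1 and Sox10 in both crush comparisons, Pou3f2 against contralateral and Zeb2 against uncrushed nerves, Egr2 and Pou3f1 in Dgcr8 iKO, and Nab1 in Dicer iKO. Over all alternatives, values of called members kept their call in 245 fits and lost it in 18, and values not called stayed so in 495, were called in 11 and changed sign in 38. The cause of each change was not tested. DESeq2 called 1 member higher between contralateral and uncrushed nerves (Sox10), 1 higher in the interaction (Pou3f1) and 2 lower in Dicer iKO (Nab1 and Egr2). Egr2 was also called in Dicer iKO without a filter (-0.91, 2 members lower) and with all groups in one fit, where 2 members were lower and 1 higher (Pou3f1). Yy1 lost its call against uncrushed nerves with at least 10 counts in every sample (0.24) and with all groups in one fit (0.25).

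Members with values near 0 changed sign. Without a filter, the log2 fold change against uncrushed nerves was 0.063 for Pou3f2 and 0.20 for Tead1. This setting moved the median of all genes by 0.23 against uncrushed and 0.17 against contralateral nerves, while at least 10 counts in every sample moved the former by -0.12 and all groups in one fit by -0.10. Egr2 between contralateral and uncrushed nerves was at -0.014 with at least 10 counts in every sample. In Dicer iKO, Zeb2 was at -0.0063 with RLE normalization, -0.0061 without a filter, -0.0063 in DESeq2 and -0.0019 with all groups in one fit.

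Leaving out each library in turn gave 2 to 3 members higher and 4 lower against uncrushed nerves, 1 to 3 higher and 6 lower against contralateral nerves, 0 to 1 higher and 1 to 3 lower in Dicer iKO, and 1 to 2 in each direction in Dgcr8 iKO. Against uncrushed nerves Pou3f2 ranged from -0.40 to 0.00093 and Tead1 from -0.10 to 0.070, and Egr2 between the controls from -0.083 to 0.14. In Dicer iKO Pou3f2 ranged from -0.10 to 0.74, Zeb2 from -0.045 to 0.062 and Tead1 from -0.072 to 0.23. In Dgcr8 iKO Pou3f2 ranged from -0.026 to 0.38 and Tead1 from -0.26 to 0.12. In the interaction Egr2 ranged from -0.19 to 0.30, Sox10 from -0.021 to 0.41, Pou3f2 from -0.55 to 0.29, Nab1 from -0.088 to 0.26 and Tead1 from -0.34 to 0.081.

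Between contralateral and uncrushed nerves, 57 genes were higher and 599 lower without a filter, and 2 and 177 without uncrushed replicate 2. In the interaction, 320 genes were higher and 81 lower without Dicer control replicate 3.

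Same-numbered samples did not deviate together (correlations of -0.174 to 0.177 over the 5 comparisons), so the numbers were not taken to pair samples. With the replicate number as a block, Tead1 was at 0.012 against uncrushed nerves and Egr2 at -0.027 between the controls, 1 member was lower in Dgcr8 iKO, where Nab1 lost its call (-0.56, adjusted p = 0.0506), and Yy1 lost its call against uncrushed nerves (0.35, adjusted p = 0.0519). The block left 687 genes higher and 242 lower in Dicer iKO.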
